A study of Rattus norvegicus with 20 samples.

Results

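The endoplasmic reticulum (ER) chaperones are the abundant proteins that fold and check newly made secreted and membrane proteins in the lumen of the ER. Messenger RNA of 8 of them was followed in the choroid plexus of 20 rats: Hspa5 (BiP), Hsp90b1 (Grp94), Calr (calreticulin), Canx (calnexin), the protein disulfide isomerases Pdia3, Pdia4 and Pdia6, and P4hb. The 8 genes were chosen by name, and each was found under 1 Ensembl identifier among the 32883 genes of every library. All 8 passed the filter on low values, a mean TPM of 0.1 or more. TPM is a transcript's share of its library after division by its length, so levels of different genes can be compared. The identifiers are ENSRNOG00000018294 (Hspa5), ENSRNOG00000026963 (Hsp90b1), ENSRNOG00000003029 (Calr), ENSRNOG00000003343 (Canx), ENSRNOG00000015018 (Pdia3), ENSRNOG00000006228 (Pdia4), ENSRNOG00000050197 (Pdia6) and ENSRNOG00000036689 (P4hb).

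The choroid plexus is the secretory epithelium in the brain ventricles that makes cerebrospinal fluid and releases proteins such as transthyretin into it. Proteins bound for secretion enter the ER unfolded. BiP holds exposed stretches of them, calnexin and calreticulin bind those that carry sugar chains, and disulfide isomerases form and reshuffle disulfide bonds. When unfolded protein builds up, the sensors of the unfolded protein response raise transcription of many ER chaperone genes through the transcription factors Atf6 and Xbp1.

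The rats were female Zucker rats of 16 weeks on normal chow, with 1 library per rat. Lean rats carried 1 copy of the leptin receptor mutation fa (+/fa, n = 6), and obese rats carried only mutated copies (fa/fa, n = 6), so leptin receptor signalling was impaired in every tissue and the lean rats were heterozygotes. In a second set, lean rats had sesame oil injected as vehicle (Lean+VEH, n = 4), and obese rats had testosterone in the same oil (Obese+TT, n = 4). No group of obese rats with vehicle or of lean rats with testosterone was analysed here, so obesity and testosterone cannot be told apart within the injected rats, nor injection from anything else that differed between the untreated and the injected sets. The estrous cycle was not controlled, and the plexus of the lateral and the fourth ventricles was taken as 1 tissue.

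The libraries had the epithelium's markers: all 10 of the list had an identifier and none was at 0, and transthyretin (Ttr) alone held between 31.2 and 39.3% of all TPM in the 12 untreated rats and between 25.8 and 30.5% in the 8 injected rats. The other 9 epithelial markers summed to 7328 to 9099 TPM in the untreated rats and to 11381 to 13091 TPM in the injected rats, and 7 of these 9 were higher in every injected than in every untreated rat, while Aqp1 and Prlr overlapped. Plvap and Rgs5, markers of endothelium and of mural cells and the 2 of that list of 9 with an identifier at hand, summed to 119 to 180 TPM and to 4.42 to 19.8 TPM, respectively. Both sets of rats therefore differed in markers of several cell types at once, and not in 1 direction. The share of all genes higher in every injected than in every untreated rat was not counted. Of the 3 fibroblast markers read of a list of 6, Dcn was at 75.5 to 105 TPM against 6.82 to 13.9 TPM and Col1a1 at 3.42 to 9.57 TPM against 0.37 to 1.47 TPM, whereas Pdgfra was at 21.3 to 35.1 TPM against 39.3 to 77.2 TPM. Cd74 (of antigen-presenting cells), the 1 marker read of the 7 of leukocytes, was at 134 to 218 TPM against 26.4 to 87.0 TPM. In such bulk RNA, fewer cells of a type and less RNA per cell cannot be told apart. A library of the Lean+VEH group, replicate 14, stood apart from the others of the injected set on the first principal component, with 14968 genes above 0 TPM where the other 19 libraries had at least 15609.

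Where a promoter sequence was at hand, a motif of the unfolded protein response was looked for. The ER stress response element (ERSE), the letters CCAAT and CCACG with 9 free bases between them, was searched on both strands of the RefSeq promoter windows of the rat assembly GRCr8, from 250 bases before to 50 bases after each gene's start. The CCAAT and CCACG parts are also counted alone below, where they overlap with it. The windows of 6 of the 8 genes were in the table, those of Pdia3 and Pdia6 were not, and 4 of the 6 held the motif: Hspa5, Hsp90b1, Calr and Canx. Over all 27457 promoters it was found in 21, or 0.0765%. The motif was described on promoters of genes of this family, so its presence in them is a description and not independent evidence. The windows of Pdia4 (chr4:78153142-78153441, minus strand) and P4hb (chr10:106346862-106347161, minus strand) did not hold these letters. Each shorter motif alone was in all 6 windows, but also in 37.7% (CCAAT) and 32.5% (CCACG) of all promoters. The related motifs ERSE-II, which is ATTGG and CCACG with 1 free base between them, and the core of the unfolded protein response element, TGACGTGG, were in none of the 6 windows and in 0.0546% and 0.637% of all promoters. The stretches with the ERSE are shown because they are what these 4 promoters share, with 5 bases on each side and with the fixed letters of the motif in capitals. Capitals that read CGTGG first and ATTGG last are the same motif on the opposite strand. They lie at chr3:38452968-38452996 (Hspa5, plus strand), chr19:40213130-40213158 (Calr, plus strand), chr10:35158064-35158092 (Canx, minus strand) and chr7:23012342-23012474 (Hsp90b1, minus strand).
Hspa5: gttcaCCAATcggaggcctCCACGacggg
Calr: caacgCGTGGtcgaccctgATTGGcccag
Canx: cttgtCCAATcatcacgctCCACGaagaa
Hsp90b1: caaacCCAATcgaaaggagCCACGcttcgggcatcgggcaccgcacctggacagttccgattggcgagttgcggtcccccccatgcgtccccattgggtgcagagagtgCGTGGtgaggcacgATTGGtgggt
The motif began 43 bases before the gene start in Hspa5, the nearest of the 4 genes' matches to a start. The Hsp90b1 promoter held it in 2 copies, 1 on each strand, and was the only promoter among the 27457 with 2 or more. In Calr and Canx it lay farther out, with its first base 232 and 230 bases before the start. Among the other lists of ER genes described below, the motif was in the promoters of Dnajc3, Ero1b, Creld2, Xbp1 and Derl3, and ERSE-II in those of Dnajb11, Hyou1 and Herpud1. Of the 10 cytosolic chaperone promoters in the table, 0 held either.

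The chaperones were among the well expressed transcripts of the tissue, and their order of level differed between the untreated and the injected rats. In lean rats, Pdia3, the isomerase that works with calnexin and calreticulin on glycoproteins, had the highest mean with 475 ± 29.6 TPM (SD, n = 6). Calr followed with 472 ± 30.3 TPM and Hspa5 with 439 ± 50.6 TPM, and these 3 overlapped from rat to rat. Next came Canx with 246 ± 18.1 TPM, Pdia6 with 226 ± 13.0 TPM and Hsp90b1 with 223 ± 14.5 TPM, neighbours whose ranges also overlapped. P4hb, the isomerase that is also a subunit of collagen prolyl 4-hydroxylase, was at 144 ± 6.26 TPM and Pdia4 at 42.9 ± 3.62 TPM, each below the one above it in 6 of 6 lean rats without overlap. In the obese rats Pdia3, Calr and Hspa5 kept this order in 6 of 6 rats, with ranges that overlapped, and Pdia6 and Canx changed places with overlapping ranges. In both injected groups Calr was first, with a mean of 781 TPM in the Lean+VEH group (SD 122, n = 4) and of 703 TPM in the Obese+TT group (SD 11.4, n = 4). Hspa5 and then Pdia3 followed by mean level, although Hspa5 exceeded Pdia3 in only 1 of 4 Obese+TT rats. Hsp90b1 stood above Canx in each of the 8 injected rats. P4hb and Pdia4 were the lowest of the 8 in every group.

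**Figure D1:**
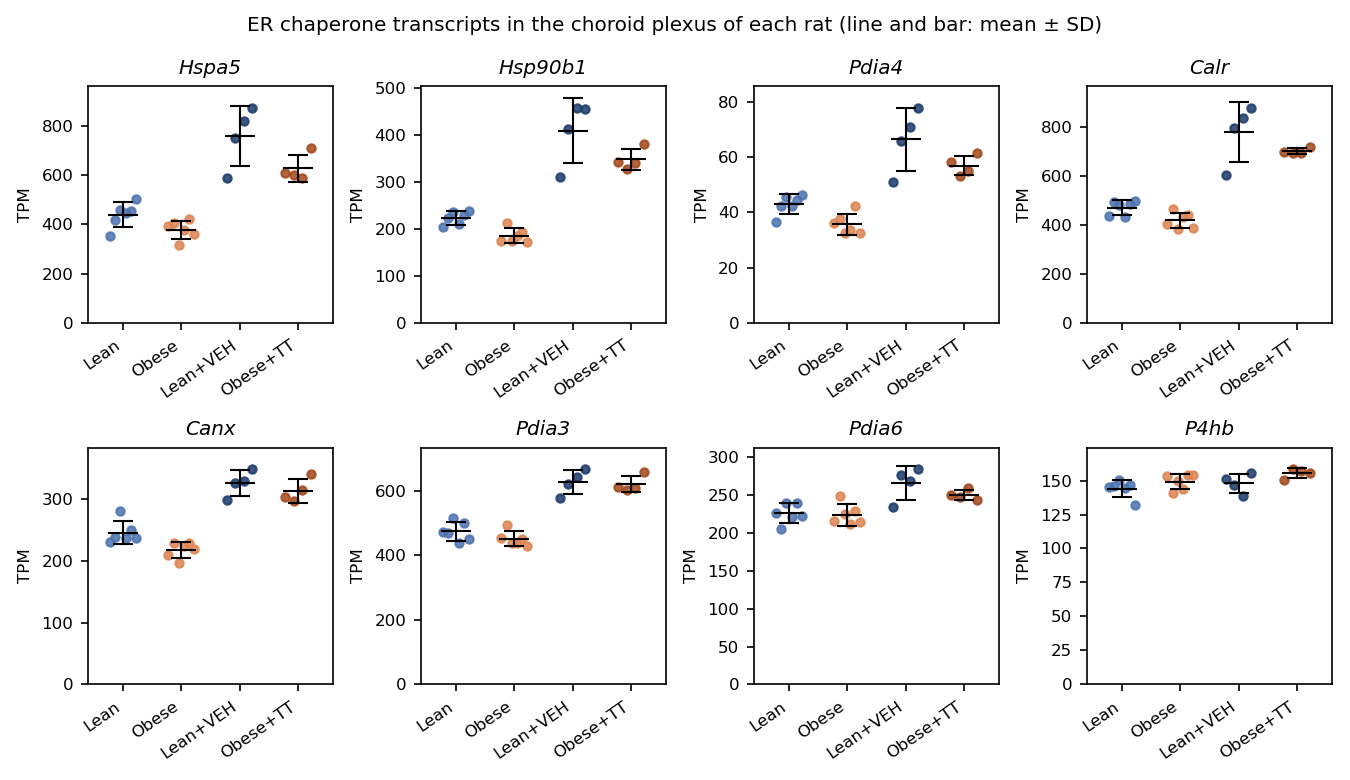
Level of each chaperone transcript in TPM (vertical axes, from 0) in every rat (points), with the mean and SD of each group (black line and bar). In Hspa5, Hsp90b1, Pdia4, Calr, Canx and Pdia3 the 8 injected rats lie above the 12 untreated rats, whereas the groups overlap in Pdia6 and in P4hb, which ranged from 132 to 158 TPM over the 20 rats.

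The first comparison was of obese with lean rats, both untreated. Hsp90b1, the ER member of the Hsp90 family, was at 203, 225 and 239 TPM (lowest, median and highest) in the lean rats and at 171, 180 and 212 TPM in the obese rats. Of the 6 obese rats, 5 were below every lean rat. Its mean was 17.0% lower in obese rats, with a log2 fold change of -0.27 (SE 0.06, limma on log2(TPM + 0.1)), an unadjusted p of 0.000838 and an adjusted p of 0.209 after Benjamini-Hochberg adjustment over 15176 genes. BiP itself, the Hspa5 product and the most studied chaperone of the ER, was at 352, 450 and 504 TPM in the lean rats and at 316, 385 and 420 TPM in the obese rats. These ranges overlapped, with 1 obese rat below all lean rats, and the log2 fold change was -0.21 (SE 0.09, adjusted p = 0.454, limma). Pdia4, an isomerase found in complexes with BiP, was at 36.4, 43.4 and 46.2 TPM in the lean rats and at 32.4, 34.9 and 42.2 TPM in the obese rats, with a log2 fold change of -0.26 (SE 0.08, adjusted p = 0.304, limma). Here 4 of 6 obese rats were below all lean rats.

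The lectin chaperones, which bind glycoproteins, had smaller differences. Canx, anchored in the ER membrane, was at 231, 238 and 280 TPM in the lean rats and at 196, 222 and 230 TPM in the obese rats. It was the only one of the 8 genes whose highest obese value lay below the lowest lean value, and its log2 fold change was -0.17 (SE 0.06, adjusted p = 0.376, limma). Calr, its soluble counterpart, was at 431, 485 and 499 TPM in the lean rats and at 385, 418 and 465 TPM in the obese rats, also with a log2 fold change of -0.17 (SE 0.06, adjusted p = 0.388, limma). The remaining isomerases were nearly level. Pdia3 had a log2 fold change of -0.07 (95% interval -0.19 to 0.04), Pdia6 of -0.01 (-0.13 to 0.11) and P4hb of 0.05 (-0.05 to 0.15).

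No gene of the 15176 tested passed the adjusted threshold of 0.05 in this comparison, and none of the 8 chaperones did. The study's own test, DESeq2 on read counts, did report differentially expressed genes here and between the injected groups. The absence of calls therefore holds for the limma fits on TPM. Before adjustment, 1466 genes or 9.66% had a p under 0.05, of which 569, or 3.75% of all tested, were lower in obese rats, and 5 of the 8 chaperones were among these lower ones: Hspa5, Hsp90b1, Pdia4, Calr and Canx. The mean was lower in obese rats for 7 of 8 chaperones and for 44.3% of all genes, and the median log2 fold change was -0.17 over the 8 and 0.02 over all genes tested. Non-overlapping groups with obese rats lower were found for 1 of the 8 and for 0.244% of all genes. Exact two-sided permutation tests over the rats, among 32 such tests of single genes and not adjusted for their number, gave p = 0.00216 for Canx, the smallest p that 6 against 6 rats allow, and p = 0.00649 for Hsp90b1, 0.013 for Pdia4, 0.0216 for Calr and 0.0498 for Hspa5. For Pdia3, Pdia6 and P4hb the exact permutation p was 0.152, 0.797 and 0.169. In every alternative processing the 5 genes stayed lower in obese rats and uncalled, with adjusted p from 0.157 to 0.653. Beside this difference, Plvap and Rgs5 summed to 132 to 167 TPM in lean and 119 to 180 TPM in obese rats, Dcn was at 78.2 to 105 TPM and 75.5 to 105 TPM, Cd74 at 134 to 171 TPM and 165 to 218 TPM, and Col1a1 at 3.42 to 5.84 TPM and 4.93 to 9.57 TPM. The globin transcripts of red blood cells summed to 3104 to 5471 TPM in lean and 4051 to 7019 TPM in obese rats. Their part in the result was not tested.

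**Figure D2:**
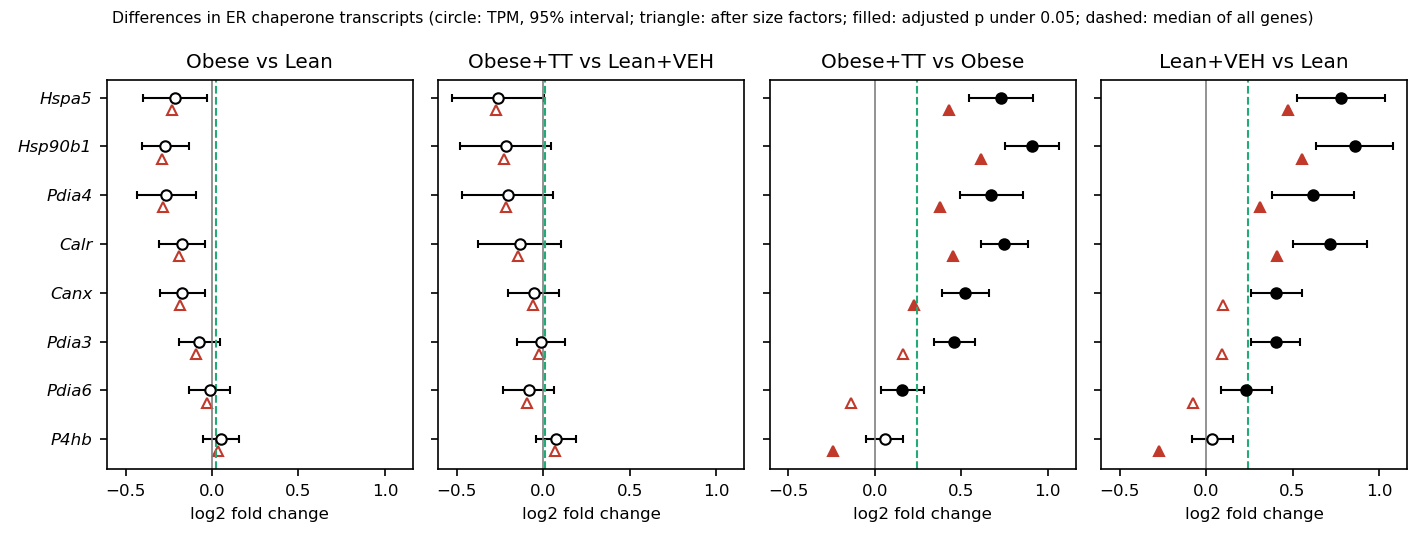
Log2 fold change (horizontal axes) of the 8 chaperones in each comparison, from TPM with its 95% interval (circles) and after division by median-ratio size factors (triangles), filled where the adjusted p was under 0.05 in limma. The dashed line is the median of all genes on the TPM scale. No symbol is filled in Obese vs Lean or Obese+TT vs Lean+VEH. In both comparisons of injected with untreated rats all circles but that of P4hb are filled, and with size factors the triangles of Pdia6 and P4hb lie below 0.

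The second comparison was of obese rats given testosterone with lean rats given vehicle. None of the 15259 genes tested passed the adjusted threshold in limma, with 1134 or 7.43% at an unadjusted p under 0.05, and none of the 8 chaperones was among these. Hspa5 lay just above that limit (unadjusted p = 0.0508, limma) and just below it with size factors (0.046). Hspa5 was at 590, 752, 818 and 873 TPM in the 4 Lean+VEH rats and at 607, 601, 589 and 709 TPM in the 4 Obese+TT rats. The highest 3 Lean+VEH rats exceeded every Obese+TT rat, while replicate 13 of the Lean+VEH group lay among them. Its log2 fold change was -0.26 (SE 0.12, adjusted p = 0.671, limma). Hsp90b1 was at 311, 412, 458 and 454 TPM against 342, 328, 340 and 380 TPM, with a log2 fold change of -0.22 (SE 0.12, adjusted p = 0.723, limma). Pdia4 was at 50.9, 66.0, 71.0 and 77.9 TPM against 58.1, 53.3, 55.0 and 61.4 TPM (log2 fold change -0.21, SE 0.12), and Calr at 604, 798, 839 and 881 TPM against 700, 696, 696 and 720 TPM (-0.14, SE 0.11). In each of these genes the same Lean+VEH rat, replicate 13, was the lowest of its group, and its Calr, Hsp90b1 and Pdia4 levels were below all Obese+TT rats.

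Canx, Pdia3, Pdia6 and P4hb differed less, with log2 fold changes of -0.06 (95% interval -0.20 to 0.09), -0.01 (-0.15 to 0.12), -0.09 (-0.23 to 0.06) and 0.07 (-0.04 to 0.19). The mean was lower in Obese+TT rats for 7 of 8 chaperones and for 47.4% of all genes, with a median log2 fold change of -0.11 against 0.01 over all genes. The smallest p of the exact two-sided permutation test is 0.0286 with 4 rats on each side, and the 8 genes had p from 0.114 to 0.8. Without replicate 13 of the Lean+VEH group, the log2 fold change was -0.38 for Hspa5 (adjusted p = 0.182), -0.34 for Hsp90b1 (adjusted p = 0.147), -0.33 for Pdia4 (adjusted p = 0.201) and -0.26 for Calr (adjusted p = 0.198, limma), still uncalled. Calr then moved by more than 1.5 times, as did Pdia4, Hsp90b1, Canx, Pdia3 and Pdia6. Without that rat 5 of the 8 chaperones had an unadjusted p under 0.05 (limma), all lower in Obese+TT rats, beside 9.71% of all genes. With any other rat left out, 0 or 1 of the 8 did. Without replicate 16 of that group, Pdia4 had -0.12 and Calr -0.07. Replicate 13 also had the highest Hba-a1 (a globin of red blood cells) of its group, 3303 TPM where the others had 1213 to 1287 TPM, while the Obese+TT rats had 2641 to 4444 TPM. Its Hba-a2 was the highest of the group too, with 1106 TPM against 409 to 496 TPM. Its Hbb was not, with 1359 TPM where replicates 14, 15 and 16 had 953, 1470 and 546 TPM. Summed globins differed between these groups as a whole, with 2168 to 5767 TPM in Lean+VEH and 4799 to 8387 TPM in Obese+TT rats, and the part of blood in the values was not tested.

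The difference between the untreated and the injected obese-to-lean contrasts was tested in 1 fit of the 20 libraries. It ranged over the 8 chaperones from -0.07 for Pdia6 to 0.12 for Canx on the log2 scale, with standard errors of 0.07 to 0.15 and adjusted p from 0.781 to 0.963 (limma). None of 15406 genes was called, and 8.36% had an unadjusted p under 0.05, none of the 8 among them. For Hspa5 the 95% interval of the difference ran from -0.36 to 0.26 and for Hsp90b1 from -0.22 to 0.32, so each interval was wider than either contrast was large. Without replicate 13 of the Lean+VEH group the median over the 8 genes went from 0.04 to -0.07.

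The largest differences in these transcripts lay between the injected and the untreated rats, in lean and obese animals alike. Of the 8 chaperones, 6 were higher in all 8 injected rats than in all 12 untreated rats. Hspa5 was at 316 to 504 TPM in the untreated rats and at 589 to 873 TPM in the injected rats. Hsp90b1 was at 171 to 239 TPM and at 311 to 458 TPM, Calr at 385 to 499 TPM and at 604 to 881 TPM, and Pdia4 at 32.4 to 46.2 TPM and at 50.9 to 77.9 TPM. The ranges came closer in Canx, with 196 to 280 TPM and 296 to 349 TPM, and in Pdia3, with 429 to 516 TPM and 578 to 668 TPM. In Pdia6 (206 to 249 TPM and 234 to 284 TPM) and P4hb (132 to 154 TPM and 138 to 158 TPM) they overlapped.

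Between Obese+TT and untreated obese rats, 8941 of 15389 genes, 58.1%, were called, 41.7% of all genes as higher, and 7 of the 8 chaperones were called higher. Hsp90b1 rose 1.88-fold by mean TPM (log2 fold change 0.91, SE 0.07, adjusted p = 1.61e-06), Calr 1.68-fold (0.75, SE 0.06, adjusted p = 2.64e-06) and Hspa5 1.66-fold (0.73, SE 0.08, adjusted p = 2.03e-05, limma). Pdia4 rose 1.59-fold, Canx 1.44-fold, Pdia3 1.38-fold and Pdia6 1.12-fold. P4hb had a log2 fold change of 0.06 (adjusted p = 0.326, limma). Non-overlapping groups with the injected rats higher were found in 6 of 8 chaperones and in 34.1% of all genes, and in these 6 the exact two-sided permutation p was 0.00476, the smallest that 4 against 6 rats allow. The median log2 fold change was 0.60 over the 8 genes and 0.25 over all genes. The call of Pdia6 (log2 fold change 0.16, adjusted p = 0.0299, limma) was lost when any 1 of replicates 7 and 12 of the obese or 17, 18 and 19 of the Obese+TT rats was left out, with adjusted p up to 0.0877.

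Between Lean+VEH and untreated lean rats, which had neither obesity nor testosterone, 58.2% of 15326 genes were called, 41.7% as higher, and the same 7 of 8 chaperones were called higher. Hsp90b1 rose 1.83-fold (log2 fold change 0.86, SE 0.10, adjusted p = 1.57e-05), Hspa5 1.73-fold (0.78, SE 0.12, adjusted p = 0.0001) and Calr 1.66-fold (0.71, SE 0.10, adjusted p = 5.3e-05, limma). Pdia4 rose 1.55-fold, Canx 1.32-fold, Pdia3 1.32-fold and Pdia6 1.18-fold, and P4hb had a log2 fold change of 0.04 (adjusted p = 0.593, limma). Non-overlapping groups with the injected rats higher were found in 6 of 8 chaperones and in 34.0% of all genes. The median log2 fold change was 0.51 over the 8 genes and 0.24 over all genes. These 2 comparisons of injected with untreated rats share no rat, and their difference is the difference of contrasts given above, in which no chaperone was called.

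How much of these rises was shared by most genes depended on the scale. TPM is a share, and Ttr took less of it in the injected rats. Rescaling without Ttr moved the median of all genes only in part, from 0.25 to 0.10 between Obese+TT and obese rats. Between Lean+VEH and lean rats it went from 0.24 to 0.14. What lay behind the rest of the shift was not tested. Dividing by median-ratio size factors moved the median of all genes from 0.25 to -0.04 between Obese+TT and obese rats, and from 0.24 to -0.05 between Lean+VEH and lean rats. On that scale the calls were 26.7% of all genes higher and 30.7% lower in the obese animals, and 27.2% higher and 32.0% lower in the lean animals. Hsp90b1 still rose by 0.61 and 0.55 on the log2 scale in the obese and in the lean animals, Hspa5 by 0.43 and 0.47, Calr by 0.45 and 0.41, and Pdia4 by 0.38 and 0.31. These 4 were called higher in both comparisons in each alternative scaling, with FPKM, with the fit settings tried and on leaving out any rat of the groups compared. Canx was called in the obese animals (0.22, adjusted p = 0.0132) and not in the lean (0.10, adjusted p = 0.131, limma), and Pdia3 in neither (0.16, adjusted p = 0.0624, and 0.09, adjusted p = 0.109). Pdia6 turned to -0.14 and -0.07 without a call, and P4hb was then called lower, by -0.24 (adjusted p = 0.00083) and -0.27 (adjusted p = 0.000112, limma). Size factors divide all genes of a library by the same number. The order of the 8 genes by size of difference, from Hsp90b1 down to P4hb, was therefore bound to stay and is no separate result. The sign of P4hb and Pdia6 was set by the scale.

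Ratios within a library do not depend on the scale. Hsp90b1 per P4hb was 1.55 ± 0.14 (SD, n = 6) in lean, 1.24 ± 0.14 in obese, 2.78 ± 0.52 (SD, n = 4) in Lean+VEH and 2.24 ± 0.16 in Obese+TT rats. The lowest ratio of the injected rats, 2.06, was above the highest of the untreated rats, 1.81. Hspa5 per Hsp90b1, by contrast, stayed between 1.73 and 2.26 over all 20 rats, with means of 1.97 ± 0.15, 2.05 ± 0.17, 1.86 ± 0.06 and 1.80 ± 0.06. Calr per Canx, the soluble per the membrane lectin, was 1.92 ± 0.15, 1.92 ± 0.09, 2.39 ± 0.24 and 2.25 ± 0.10. Beside these differences, Plvap with Rgs5, Dcn, Col1a1, Cd74 and Ttr were lower in all injected than in all untreated rats, and Pdgfra and 7 of the 9 other epithelial markers were higher. Their part in the rise of the chaperones was not tested.

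Within groups, 7 of the 8 chaperones went up and down together from rat to rat, and P4hb did not. After subtraction of the group means, Pearson's r between a gene and the mean of the other 7 over the 20 rats was 0.92 for Hsp90b1, 0.92 for Pdia4, 0.88 for Calr, 0.83 for Hspa5, 0.78 for Canx, 0.73 for Pdia3 and 0.65 for Pdia6, but -0.17 for P4hb. All 21 pairs without P4hb had r above 0, from 0.44 for Hspa5 with Pdia6 to 0.95 for Hsp90b1 with Calr, while P4hb had r from -0.36 to 0.13 with the others. The 21 pairs were more weakly tied in the 12 untreated rats alone, with r from 0.18 (Hspa5 with Pdia3) to 0.92. In the 8 injected rats they had r from 0.60 to 0.98. The values share their library and its TPM scale, and replicate 13 of the Lean+VEH group weighs in them. Without it, r with the mean of the other 7 was 0.87 for Hsp90b1, 0.76 for Hspa5 and 0.49 for Pdia6. In that rat the log2 deviation from the group mean was -0.38 for Hsp90b1, -0.37 for Pdia4, -0.35 for Hspa5 and 0.03 for P4hb. The opposite was seen in replicate 16 of the same group, where all 8 were above their group mean.

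**Figure D3:**
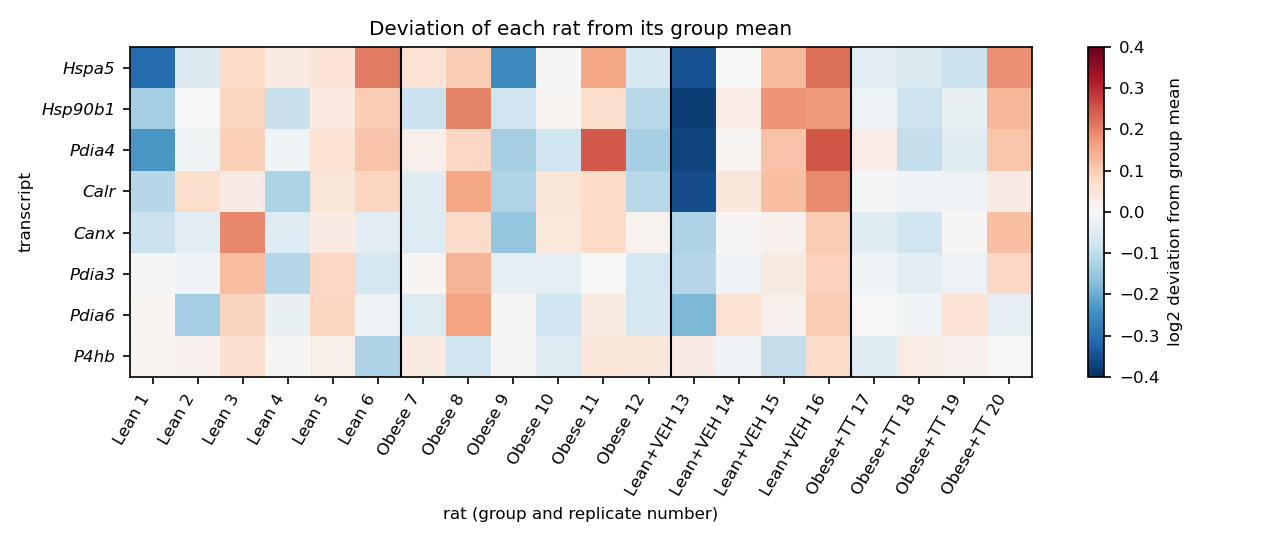
Deviation of each chaperone (rows) from its group mean in every rat (columns) in log2 units, red above and blue below. Lean+VEH replicate 13 is low in 7 of 8 genes, with -0.38 for Hsp90b1, and Lean 1 is low in Hspa5 (-0.31) and Pdia4 (-0.23), whereas the row of P4hb stays pale.

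By the same within-group measure, 10 genes were most like the mean of the 8 chaperones over the 20 rats, among 2373 genes with a name at hand and a mean of at least 10 TPM. They were Dkk3 (r = 0.86), Dnaja4 (0.83), Fkbp4 (0.82), Vdac1 (0.80), Pdgfra (0.79), Abhd3 (0.76), Hsp90aa1 (0.75), Cacybp (0.75), Serpine2 (0.75) and Ahcyl1 (0.73). Without Lean+VEH replicate 13 they had r from 0.60 to 0.76. Being alike within groups did not mean differing alike between them. Pdgfra, the fibroblast marker given above, rose in the injected rats, from 25.4 ± 2.99 TPM (SD, n = 6) in lean to 65.1 ± 17.5 TPM (SD, n = 4) in Lean+VEH rats. Serpine2 fell from 66.4 ± 8.26 TPM to 11.1 ± 2.20 TPM, a log2 fold change of -2.59 (adjusted p = 3.9e-08, limma). Cacybp had 0.08 there (adjusted p = 0.487).

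The partners of the chaperones were described from lists of ER genes, of which only those with an identifier at hand could be read. Names were at hand for the most abundant genes and for genes that the study called on these same libraries, so the lists are not a complete or independent sample. Their calls stand beside 41.7% of all genes called higher and 16.4% lower between Obese+TT and obese rats, and 41.7% higher and 16.5% lower between Lean+VEH and lean rats. Of the co-chaperones and exchange factors of BiP, 7 of 10 were read. Between Obese+TT and obese rats 5 of 7 were called higher and 1 lower, with a median of 0.26, near the 0.25 of all genes and at -0.03 after size factors. Hyou1, a nucleotide exchange factor of BiP in the ER, rose from 19.9 to 41.8 TPM by group means (log2 fold change 1.07, adjusted p = 1.35e-05, limma), more than any of the 8 chaperones, and by 1.11 in the lean animals. Dnajc3, a co-chaperone that also restrains the kinase Perk, rose by 0.77 and 0.65, and Sec63, which brings BiP to the translocon, by 0.59 and 0.53. These 3 were called higher after size factors too, Hyou1 with 0.77 and 0.80. On that scale 2 of the 7 were called lower in the obese and 3 in the lean animals, where 30.7% and 32.0% of all genes were. They were Manf (-0.55 and -0.33) and Sdf2l1 (-0.43 and -0.37) in both, and Sil1 in the lean (-0.11). Manf, a secreted ER protein, fell in the obese animals by 0.25 (adjusted p = 0.0149, limma) on the log2 scale. In Obese vs Lean 6 of 7 were lower, beside 44.3% of all genes, with a median of -0.12 against 0.02 over all genes and none called. There Hyou1 had -0.22 (adjusted p = 0.546, limma). In Obese+TT vs Lean+VEH 5 of 7 were lower, beside 47.4% of all genes, with a median of -0.14 against 0.01 over all genes. There Manf had -0.35 (adjusted p = 0.548, limma).

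Of the other disulfide isomerases, their oxidases and the prolyl isomerases of the ER, 10 of 18 were read. Between Obese+TT and obese rats 7 were called higher and 2 lower, with a median of 0.26 that went to -0.04 after size factors. Erp44, which retains unfinished proteins, rose by 0.48 (0.19 after size factors), and Fkbp9 by 0.45 (0.15 after size factors). Fkbp2, a prolyl isomerase, fell by 0.35. In Lean+VEH vs Lean 6 were called higher and 2 lower. After size factors 3 were called higher and 3 lower in the obese animals, and 1 and 3 in the lean. Ero1b, an oxidase that recharges disulfide isomerases, was at 11.2 ± 0.94 TPM in obese and 13.0 ± 1.02 TPM (SD, n = 6) in lean rats, a log2 fold change of -0.21 that did not pass (adjusted p = 0.388, limma). From untreated to injected rats Ero1b rose by 0.555 in obese (adjusted p = 0.000358) and 0.36 in lean animals (adjusted p = 0.00318, limma). After size factors Ero1b had 0.26, still called, and 0.05 (adjusted p = 0.589, limma). The only P4hb partner read, of 4, was P4ha2, a catalytic subunit of collagen prolyl 4-hydroxylase. It was at 32.3 ± 4.82 TPM in lean rats and 38.4 ± 5.41 TPM (SD, n = 6) in obese rats, a log2 fold change of 0.25 (adjusted p = 0.49, limma), and was called higher in both comparisons of injected with untreated rats (0.76 in lean and 0.37 in obese animals). After size factors it had 0.45 in lean animals, still called, and 0.07 in obese animals (adjusted p = 0.512, limma).

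Among 4 of 11 glycan trimming enzymes and lectins, which feed the calnexin cycle and carry cargo out of the ER, all 4 were called higher in both comparisons of injected with untreated rats, as were 41.7% of all genes in each. Ganab, the catalytic subunit of glucosidase II, rose most, by 0.78 and 0.81, and was called on the size factor scale too (0.48 and 0.51). The others were Lman1 (0.33 and 0.56), Prkcsh (0.32 and 0.33) and Mcfd2 (0.29 and 0.35). After size factors Prkcsh had 0.02 in both, and Mcfd2 -0.01 and 0.04, without a call. None was called in Obese vs Lean, where the median was 0.05.

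The unfolded protein response genes read, 5 of 15, did not move one way. Herpud1, a target of the response, rose in Obese+TT vs Obese (0.65, adjusted p = 0.000493) and in Lean+VEH vs Lean (0.42, adjusted p = 0.000329, limma), as did the sensor relative Atf6b (0.55 and 0.80). After size factors Herpud1 had 0.35, still called, and 0.11 (adjusted p = 0.123, limma). Atf4, the transcription factor of the Perk branch, fell by 0.69 and 0.65. Xbp1 had 24.8 ± 3.13 TPM in lean, 32.4 ± 5.68 TPM in obese (SD, n = 6) and 47.2 TPM in Lean+VEH rats, and rose by 0.91 between Lean+VEH and lean rats (adjusted p = 5.4e-05, limma). In Obese+TT rats it had 40.8 TPM, a log2 fold change of 0.32 against obese rats that did not pass (adjusted p = 0.106, limma) and that was 0.02 after size factors. Total Xbp1 transcript was measured, not its splicing. In Obese vs Lean, Xbp1 (log2 fold change 0.38, adjusted p = 0.302) and Atf5 (0.25, adjusted p = 0.295, limma) had means higher in obese rats, where 7 of the 8 chaperones had lower ones. Neither passed.

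Of the ER-associated degradation genes, which draw misfolded protein out of the ER, 6 of 11 were read. The ATPase Vcp rose by 0.42 and 0.34 (0.12, called, and 0.03, not called, after size factors). Selenos, part of the complex that recruits Vcp, fell by 0.57 and 0.53. Selenos also had the smallest unadjusted p of the list in Obese+TT vs Lean+VEH, 0.00533, with a log2 fold change of -0.22 that did not pass (adjusted p = 0.518, limma). The largest list was that of the translocon, signal peptidase and oligosaccharyltransferase, by which proteins enter the ER, lose their signal peptide and receive sugar chains, with 22 of 24 read. It was split: 9 were called higher and 6 lower in Obese+TT vs Obese, with a median of 0.00 where all genes had 0.25, and 7 higher and 5 lower in Lean+VEH vs Lean, with a median of 0.04. The ribophorin Rpn2 rose by 0.79 and 0.73 and Ddost by 0.52 and 0.40, while the small subunits Sec61b (-0.61 and -0.48) and Ost4 (-0.58 and -0.31) fell. After size factors 4 were called higher and 14 lower in the obese animals, and 1 and 13 in the lean. The single KDEL receptor read of 3, Kdelr1, which returns escaped ER chaperones, was called higher on the TPM scale (0.25 and 0.18) and had -0.05 and -0.13 after size factors, the latter called lower (adjusted p = 0.0283, limma).

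Cytosolic chaperones, 9 of 12 read, were set beside those of the ER. All 9 were called higher in Lean+VEH vs Lean and 8 in Obese+TT vs Obese, with medians of 0.73 and 0.43, where 41.7% of all genes were called higher in each. After size factors 7 and 4 were called higher and 0 lower, with medians of 0.42 and 0.13, where 27.2% and 26.7% of all genes were called higher and 32.0% and 30.7% lower. In Obese vs Lean their median was 0.09 and 8 of 9 had higher means in obese rats, among them Dnajb1 (0.35, adjusted p = 0.24), Dnaja1 (0.28, adjusted p = 0.304) and Hspa8 (0.27, adjusted p = 0.354, limma), whereas 7 of 8 ER chaperones had lower means. Hsp90aa1 was the cytosolic one with a lower mean (-0.20, adjusted p = 0.388, limma), where 44.3% of all genes were lower. This contrast between the lists did not recur in Obese+TT vs Lean+VEH. There 7 of 9 cytosolic chaperones were lower in Obese+TT rats, with a median of -0.23. Of the ER chaperones 7 of 8 were lower, with a median of -0.11, where 47.4% of all genes were lower. Neither list had a call in either comparison.

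**Figure D4:**
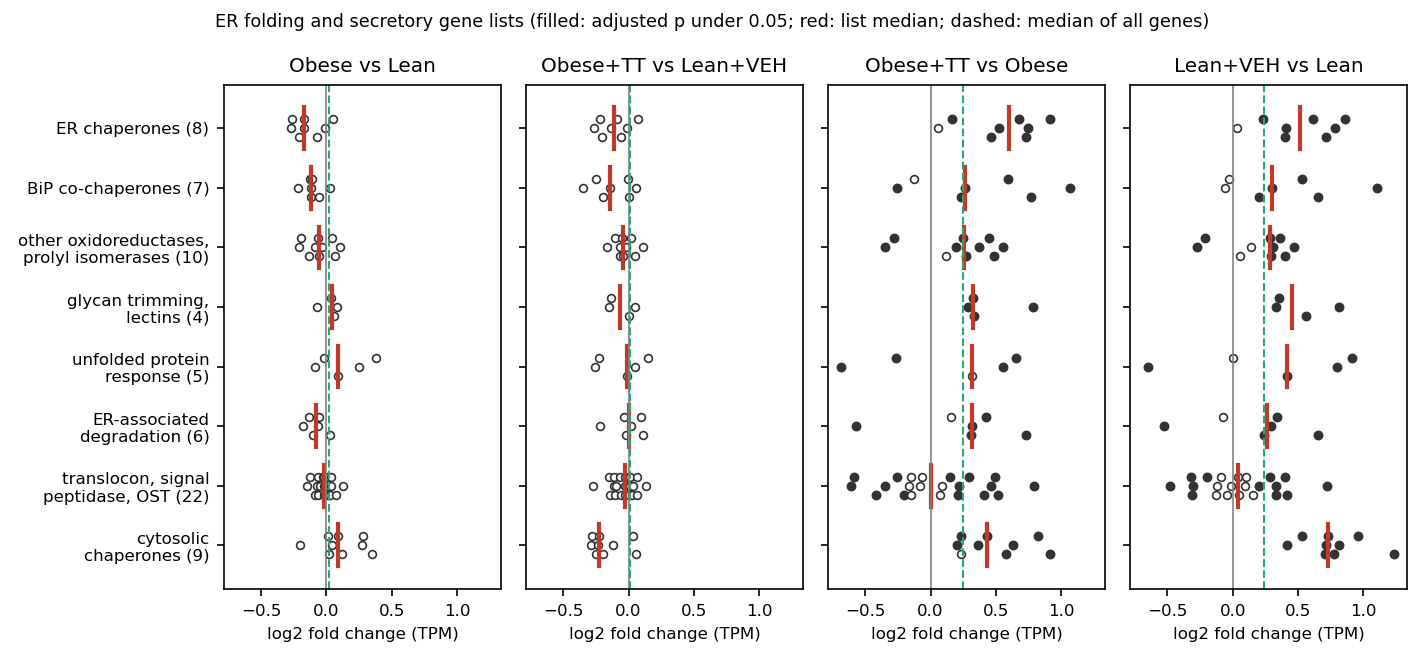
Log2 fold change on the TPM scale (horizontal axes) of each gene read in 8 lists (rows, with the number of genes; OST, oligosaccharyltransferase) in each comparison, filled where the adjusted p was under 0.05 in limma. Red bars are list medians and the dashed line is the median of all genes. The ER chaperones had a median of 0.60 in Obese+TT vs Obese and 0.51 in Lean+VEH vs Lean (0.30 and 0.20 after size factors), and the translocon list had 0.00 and 0.04 (-0.29 and -0.26).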

How the data were processed

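The authors isolated the choroid plexus, had libraries made with the NEB Next Ultra kit, sequenced them on a NovaSeq instrument and mapped the reads with STAR 2.7.9a to Rnor_6.0. RSEM 1.3.3 is named in the submitters' processing notes without a role. The values deposited by the authors are TPM and FPKM for 32883 Ensembl genes per rat, with replicates kept apart. They were scaled within each library, so sequencing depth is unknown here, no counting interval can be given, and a change in an abundant transcript moves the values of all others. A count test was not possible on them.

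TPM was used as log2(TPM + 0.1), which understates the change of low genes. Each fit tested the genes whose mean TPM in its libraries was 0.1 or more, with limma 3.58.1 in R 4.3.3 (eBayes with trend, only the groups compared, Benjamini-Hochberg adjustment over all genes tested, call at an adjusted p under 0.05). For the 8 chaperones an exact permutation test (two-sided) over rats was added. The fit was tested on simulated data. Tables and figures were made with Python 3.11.15, pandas 2.3.3, scipy 1.17.1 and matplotlib 3.10.9.

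The 8 genes, the lists and the tests were chosen with earlier results of these data known. Symbols of 2616 identifiers came from the study's supplementary tables, of which no value was used. Named genes are the 8 chaperones, from each list up to 4 called genes with the smallest p in a comparison (or the smallest unadjusted p where none was called), the 10 genes most alike within groups, Ttr, and markers that moved with a result. Promoters are RefSeq's (GRCr8), and the motif search used no coordinates of Rnor_6.0. No library pair of a group held the same values (at most 1.92% of genes identical). Alternatives were the pseudocount, the filter, the eBayes options, all 20 libraries in a fit, rescaling without Ttr or without Ttr and the mitochondrial transcripts, median-ratio size factors, the deposited FPKM, and leaving out each rat.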

Additional observations from a re-analysis of the deposited data

Results flagged for a closer look

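Over 36 sets of values (the 8 chaperones and their sum in the 4 groups), 3 had a highest or lowest rat farther from its neighbour than Dixon's 95% limit allows, where chance gives about 1 in 20. P4hb was at 132 TPM in lean replicate 6, where the next lean rat had 145 TPM. Hspa5 was at 709 TPM in Obese+TT replicate 20, where the others had 589 to 607 TPM. The sum of the 8 chaperones was 3266 TPM in that same rat, where the Obese+TT group had a median of 3022 TPM.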

How the results depend on the processing

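Of 872 differences of single chaperones recomputed under an alternative, 834 kept their direction and side of the threshold, 13 lost a call with their sign kept and 25 changed sign. Of these 25, 17 were called with neither sign, 4 (Pdia6 with size factors and with FPKM in both comparisons of injected with untreated rats) lost their call, and 4 (P4hb in the same settings) were newly called, as lower. No paired analysis was possible because no replicate number is shared between groups. The cause of the changes was not tested, except that the rescalings by construction shift all genes of a library. The sign changes of P4hb were -0.10 without Ttr, -0.065 without Ttr and mitochondrial transcripts, -0.24 with size factors and -0.22 with FPKM in Obese+TT vs Obese, and -0.072, -0.075, -0.27 and -0.22 in Lean+VEH vs Lean. Those of Pdia6 were -0.14 with size factors and -0.12 with FPKM in Obese+TT vs Obese, -0.075 and -0.027 in Lean+VEH vs Lean, and 0.0016 without Ttr in Obese vs Lean. In the difference of contrasts, Calr (-0.013) and P4hb (-0.026) changed sign without Ttr. The median of the 8 chaperones was 0.44, 0.48, 0.30 and 0.32 under these 4 rescalings in Obese+TT vs Obese and 0.40, 0.40, 0.20 and 0.25 in Lean+VEH vs Lean.

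Leaving out each rat, the median stayed at -0.19 to -0.14 in Obese vs Lean, -0.20 to -0.06 in Obese+TT vs Lean+VEH, 0.56 to 0.63 in Obese+TT vs Obese and 0.45 to 0.59 in Lean+VEH vs Lean, and at -0.070 to 0.093 in the difference of contrasts. Single values that changed sign ranged from -0.045 to 0.0042 for Pdia6 in Obese vs Lean, -0.053 to 0.016 for Pdia3 in Obese+TT vs Lean+VEH and, in the difference of contrasts, from -0.17 to 0.022 for Hspa5, -0.0745 to 0.11 for Hsp90b1, -0.084 to 0.097 for Calr, -0.065 to 0.14 for Pdia4 and -0.010 to 0.046 for P4hb.

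Counts of called genes over all genes left 0 in some settings, without a chaperone among them. In Obese vs Lean there were 3 with all 20 libraries, 1 with size factors, 1 with FPKM and 0 to 1 on leaving out a rat. In Obese+TT vs Lean+VEH there were 6 with all 20 libraries and 0 to 25 on leaving out a rat, 25 of them without Lean+VEH replicate 13. In the difference of contrasts there were 1 with a minimum of 1 TPM, 1 with robust eBayes, 10 without Ttr, 5 without Ttr and mitochondrial transcripts, 2 with size factors, 2 with FPKM and 0 to 14 on leaving out a rat, 14 without that same rat. On leaving out a rat, 8244 to 8908 genes were called in Obese+TT vs Obese and 8206 to 8822 in Lean+VEH vs Lean.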

Other observations

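The 8 chaperones summed to 2102 to 2410 TPM in the lean, 1917 to 2233 TPM in the obese, 2817 to 3742 TPM in the Lean+VEH and 2981 to 3266 TPM in the Obese+TT rats. As a share of the TPM left without Ttr, this was 0.34 ± 0.02% (SD, n = 6), 0.32 ± 0.02%, 0.48 ± 0.05% (SD, n = 4) and 0.42 ± 0.02%. The spread between rats was smallest for P4hb, with a coefficient of variation of 2.34 to 4.96% over the groups, and for Calr in the Obese+TT rats, with 1.62%, where the Lean+VEH rats had 15.7%.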
